A study of Mus musculus with 12 samples.

Results

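The enzymes that turn squalene into cholesterol were followed in mouse hepatocytes and liver mesenchymal cells with and without phenobarbital, a drug whose classical liver target is the receptor CAR. The 8 genes were Sqle, Lss, Cyp51, Msmo1, Nsdhl, Hsd17b7, Sc5d and Dhcr7, taken by the gene symbol of the array's annotation, and all 8 were found among the 12393 genes with a probe set of a single symbol. They were covered by 14 of the 22626 probe sets of the Affymetrix 3′ array: 3 each for Lss and Cyp51, 2 each for Hsd17b7 and Sc5d, and 1 each for the others. Each gene was represented by its brightest probe set, judged over all 12 arrays.

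Cells came from male C57BL/6N mice aged 12 weeks. The 12 arrays formed 4 groups of 3: mesenchymal cells of mice given phenobarbital at 50 mg/kg per day in drinking water for 14 days, mesenchymal cells of vehicle mice given tap water over the same 14 days, hepatocytes of phenobarbital mice and hepatocytes of vehicle mice. The labels do not state how many animals stood behind an array. The p-values therefore cover only sample-to-sample spread, which may be technical.

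Cholesterol is made in every nucleated cell, and the liver makes much of it for the lipoproteins it exports. Squalene is an open-chain intermediate: squalene epoxidase (Sqle) adds oxygen to it, and lanosterol synthase (Lss) folds the product into the ring system. The remaining enzymes strip methyl groups and rearrange double bonds until cholesterol is left. The genes of the pathway are classical targets of the transcription factor SREBP-2 (Srebf2), which the escort protein Scap carries out of the endoplasmic reticulum when membrane sterol is low.

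Proximal promoters of 5 of the genes are shown because SREBP factors are known to act near the start site together with the CCAAT-binding factor NF-Y. RefSeq windows (GRCm38.p6, 250 bases before a start) were held for 7 of the 8 genes, in 9 windows since Dhcr7 had 3. Sequences are given 5′ to 3′ on the gene's strand, and capitals mark CCAAT or its reverse complement ATTGG, and the letters TCACNNCA, which resemble a sterol response element, where N is any base.
Cyp51, chr5:4104712-4104795, minus strand: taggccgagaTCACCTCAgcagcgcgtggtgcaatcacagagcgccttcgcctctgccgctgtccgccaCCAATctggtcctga
Dhcr7, chr7:143830119-143830199, plus strand: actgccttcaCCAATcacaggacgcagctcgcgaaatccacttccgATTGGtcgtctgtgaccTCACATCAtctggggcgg
Msmo1, chr8:64733619-64733765, minus strand: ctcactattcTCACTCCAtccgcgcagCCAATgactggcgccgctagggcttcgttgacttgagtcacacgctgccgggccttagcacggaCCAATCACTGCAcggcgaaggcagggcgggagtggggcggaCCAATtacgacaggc
Sc5d, chr9:42264310-42264362, minus strand: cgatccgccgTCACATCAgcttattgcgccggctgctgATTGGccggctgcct
Hsd17b7, chr1:169969206-169969380, minus strand: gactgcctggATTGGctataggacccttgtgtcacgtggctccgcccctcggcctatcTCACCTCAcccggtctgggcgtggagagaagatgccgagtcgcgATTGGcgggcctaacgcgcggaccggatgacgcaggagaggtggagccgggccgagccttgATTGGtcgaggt
In Cyp51 the TCACNNCA match began 88 bases before the start, with CCAAT at 29 bases. For Dhcr7, window 3 is shown, chosen for its matches, and the start of this window lies inside the gene. Dhcr7 window 1 held neither CCAAT nor TCACNNCA, and window 2 held TCACNNCA at 130 bases without CCAAT. In Dhcr7 window 3 the TCACNNCA match began at 32 bases, with the nearer CCAAT, on the other strand, at 49. In Sc5d it began at 52 bases, with CCAAT on the other strand at 24. Msmo1 had TCACNNCA at 177 and 92 bases and CCAAT at 160, 96 and 55, and the matches at 96 and 92 overlapped.

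Across the windows, CCAAT on either strand was found in 7 of 9 and in all 7 genes, compared with 33.8% of the 32851 promoter windows of the same length in the table. TCACNNCA on either strand was found in 6 of 9 windows and in 5 of 7 genes, compared with 11.4% of all windows. The stricter TCACNCCAC was in none of the 9 windows and in 1.05% of all windows. The box GGGCGG, the recognition sequence of Sp1, was in 8 of 9 windows and in 32.7% of all windows. Lss and Nsdhl held CCAAT and GGGCGG without TCACNNCA in these windows. Letters chosen after the windows had been looked at are a description of sequence and not of binding.

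In hepatocytes all 8 genes were lower in phenobarbital than in vehicle mice, by a median log2 difference of −0.50, where 51% of all tested genes had a negative difference. In hepatocytes 7 of the 8 also had every treated array below every vehicle array. Sqle had the widest difference and Sc5d the narrowest. Over all tested genes the median difference was 0.00, and 8.14% of the 8117 genes had all treated arrays below all vehicle arrays. None of the 8 passed limma at a Benjamini-Hochberg adjusted p under 0.05 over all genes, where 0.0123% of genes passed as lower and 0.0493% in either direction. At an unadjusted p under 0.05, 7 of the 8 were lower, where 4.53% of all genes were. The 8 enzymes were chosen with earlier results of these data known. Their counts beside the shares of all genes, here and below, are therefore a description and not a test. The unit throughout is log2 expression after RMA, a method that summarises the probes of a probe set. In bulk samples fewer cells of a type and less RNA per cell cannot be told apart.

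**Figure D1:**
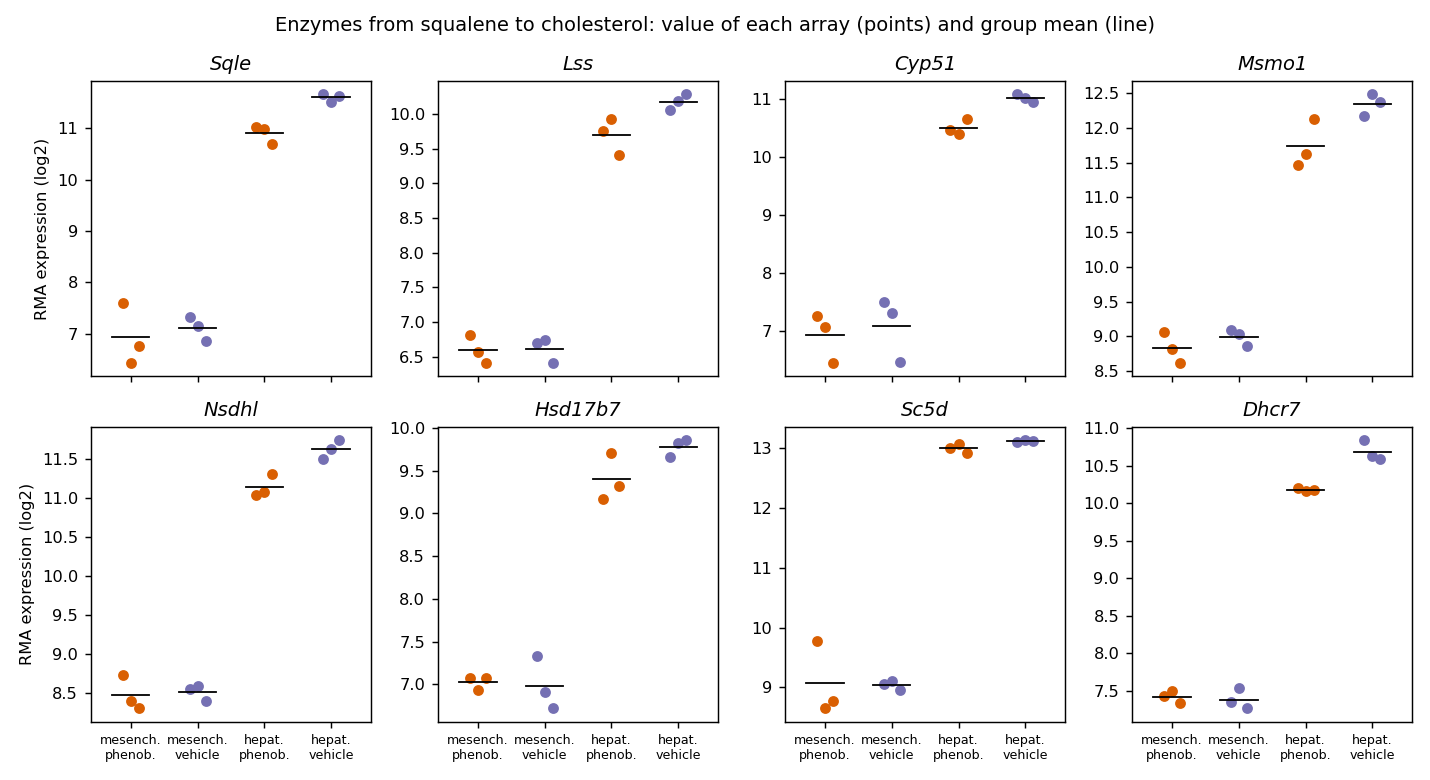
RMA expression (log2, y axis, scaled for each panel) of the 8 enzymes in each array (points) with the group mean (line), for mesenchymal cells and hepatocytes of phenobarbital (orange) and vehicle (purple) mice. In hepatocytes the treated points of 7 genes lie below every vehicle point, Hsd17b7 being the exception, and both mesenchymal groups lie far below the hepatocyte groups and overlap each other.

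Sqle (chromosome 15, 59315092 to 59331193, GRCm38.p6) encodes squalene epoxidase, a rate-limiting step of the pathway. In hepatocytes it was at 11.02, 10.99 and 10.70 in the phenobarbital arrays, against 11.66, 11.52 and 11.63 in the vehicle arrays. The groups were separate, with the highest treated array well below the lowest vehicle array. Sqle thus had a log2 difference of −0.70 (SE 0.10, 95% interval −0.93 to −0.46), which is 1.62-fold lower, with a limma adjusted p of 0.146. Only 0.752% of the tested genes had a lower difference.

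Lss (chromosome 10, 76531565 to 76557139) encodes lanosterol synthase, which closes the rings. Phenobarbital arrays had 9.75, 9.92 and 9.40 and vehicle arrays 10.05, 10.18 and 10.28. The groups did not touch, although the highest treated array came close to the lowest vehicle array. For Lss the log2 difference was −0.48 (SE 0.14, 95% interval −0.80 to −0.16), with a limma adjusted p of 0.450. The probe set that stands for Lss is of the kind that can match more than 1 transcript. The other 2 Lss probe sets differed by −0.55 (SE 0.13) and −0.27 (SE 0.15), the first with separate groups and the second with overlapping ones.

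Cyp51 (chromosome 5, 4080674 to 4104697) encodes the cytochrome P450 that takes the first methyl group off lanosterol. It belongs to the same superfamily as the P450 genes that CAR induces, yet it was lower in treated hepatocytes: 10.45, 10.39 and 10.65 in phenobarbital arrays, against 11.07, 11.01 and 10.94 in vehicle arrays. All treated arrays lay below all vehicle arrays. For Cyp51 the log2 difference was −0.51 (SE 0.09, 95% interval −0.72 to −0.30), with a limma adjusted p of 0.246. The 2 further probe sets of Cyp51 had −0.59 (SE 0.08) and −0.46 (SE 0.17). With every probe set tested on its own, the first of these had the smallest adjusted p of the 14, 0.0813 in limma, and its treated arrays (9.01, 9.05 and 9.07) lay below its vehicle arrays (9.68, 9.66 and 9.57). For comparison, the CAR target Cyp2b10 rose by 5.52 (SE 0.30) in the same fit (limma adjusted p 0.00123).

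Msmo1, Nsdhl and Hsd17b7 encode the oxidase, the decarboxylating dehydrogenase and the ketoreductase that act in turn to remove the remaining methyl groups. Msmo1 (chromosome 8, 64718123 to 64733578) was at 11.47, 11.62 and 12.13 in phenobarbital arrays and at 12.17, 12.48 and 12.37 in vehicle arrays. Its treated array 3 was just below the lowest vehicle array, while the other treated arrays were clearly lower. The log2 difference was −0.60 (SE 0.17, 95% interval −1.0 to −0.20), with a limma adjusted p of 0.450. Without that array the difference was −0.80.

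Nsdhl (chromosome X, 72918521 to 72958528) had 11.03, 11.07 and 11.30 in phenobarbital arrays, against 11.50, 11.63 and 11.74 in vehicle arrays. The groups were apart. The log2 difference was −0.49 (SE 0.10, 95% interval −0.72 to −0.26), with a limma adjusted p of 0.293. Hsd17b7 (chromosome 1, 169949535 to 169969242) had 9.17, 9.71 and 9.32 in phenobarbital arrays and 9.66, 9.83 and 9.86 in vehicle arrays. It was the member whose groups overlapped, because the second treated array exceeded the first vehicle array. The log2 difference was −0.39 (SE 0.14, 95% interval −0.72 to −0.06), with a limma adjusted p of 0.554, and its other probe set had −0.29 (SE 0.16).

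Sc5d and Dhcr7 encode a desaturase and a reductase that set the final double bonds of the sterol. Sc5d (chromosome 9, 42251592 to 42264300) was at 13.01, 13.07 and 12.93 in phenobarbital arrays, against 13.11, 13.14 and 13.13 in vehicle arrays. The treated arrays were below the vehicle arrays but by little, and the log2 difference of −0.12 (SE 0.06, 95% interval −0.26 to 0.02) was the only one of the 8 whose interval reached 0 (limma adjusted p 0.635). In all, 21.5% of tested genes had a lower difference than Sc5d. The second Sc5d probe set had overlapping groups and −0.26 (SE 0.26), with vehicle array 1 at 8.46 and the other vehicle arrays at 7.49 and 7.65.

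Dhcr7 (chromosome 7, 143823167 to 143848410) had 10.20, 10.16 and 10.18 in phenobarbital arrays, against 10.84, 10.62 and 10.59 in vehicle arrays. The treated arrays lay close together (SD 0.02, n = 3) and wholly below the vehicle arrays. The log2 difference was −0.51 (SE 0.09, 95% interval −0.71 to −0.30), with a limma adjusted p of 0.241.

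Over the 14 probe sets tested separately in hepatocytes, all 14 had negative differences, including the 6 that did not stand for their gene. In 9 of the 14 the treated arrays lay wholly below the vehicle arrays, where 7.92% of the 13705 probe sets tested did, and none passed limma's adjusted threshold, which 0.0584% of probe sets passed. Probe sets of 1 gene share their RNA and are not separate evidence. At an unadjusted p under 0.05, 10 of the 14 were lower, against 4.39% of all probe sets.

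The treated hepatocyte arrays did not rank the 8 genes in 1 order. Array 3 had the lowest treated value of Sqle, Lss and Sc5d and the highest of Cyp51, Msmo1 and Nsdhl. Array 1 was lowest for Msmo1, Nsdhl and Hsd17b7, and array 2 for Cyp51 and Dhcr7. The mean of the 8 genes was nevertheless tight, at 10.82 ± 0.05 in phenobarbital hepatocytes and 11.29 ± 0.03 in vehicle hepatocytes (SD, n = 3 each). Leaving out 1 array at a time kept all 8 differences negative and moved their median between −0.54 and −0.48.

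Vehicle array 1 stood apart in clock genes in both populations. The clock gene Dbp read 6.52 in that mesenchymal array, against 11.80 and 11.86 in the remaining vehicle mesenchymal arrays. It read 6.21 in that hepatocyte array, against 11.87 and 11.60 in the remaining vehicle hepatocyte arrays. The mean of the 8 enzymes in that hepatocyte array, 11.26, was close to 11.30 and 11.32 in its companions. Single enzymes deviated in opposite directions, which the mean does not show. That array was the highest vehicle hepatocyte array for Sqle, Cyp51 and Dhcr7 (10.84, against 10.62 and 10.59). It was the lowest for Lss, Msmo1 (12.17, against 12.48 and 12.37), Nsdhl, Hsd17b7 and Sc5d. Leaving it out, the median difference of the 8 in hepatocytes was −0.51.

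The rest of the pathway was set beside the 8 enzymes. Of the mevalonate-to-squalene enzymes, 7 of 8 tested were lower with no overlap and a median of −0.55, from Mvd (−1.02, SE 0.15) and Hmgcs1 (−0.80, SE 0.11) to Pmvk (−0.41, SE 0.12). Fdft1, which makes squalene and so supplies Sqle, was the gene of the list that passed (−0.63, SE 0.07, limma adjusted p 0.0486). That adjusted p lay just under the threshold of 0.05, and the probe set that stands for Fdft1 is of a kind that can match other transcripts. Ggps1, which leads farnesyl units away from sterols, had 0.04 (SE 0.11). The other enzymes after squalene had smaller differences than 7 of the 8. Ebp, the sterol isomerase, had −0.13 (95% interval −0.39 to 0.12), the sterol reductases Tm7sf2 and Lbr had −0.10 (−0.32 to 0.12) and −0.13 (−0.47 to 0.20), and the groups overlapped in all 3. Whether they differ from the 8 was not tested.

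**Figure D2:**
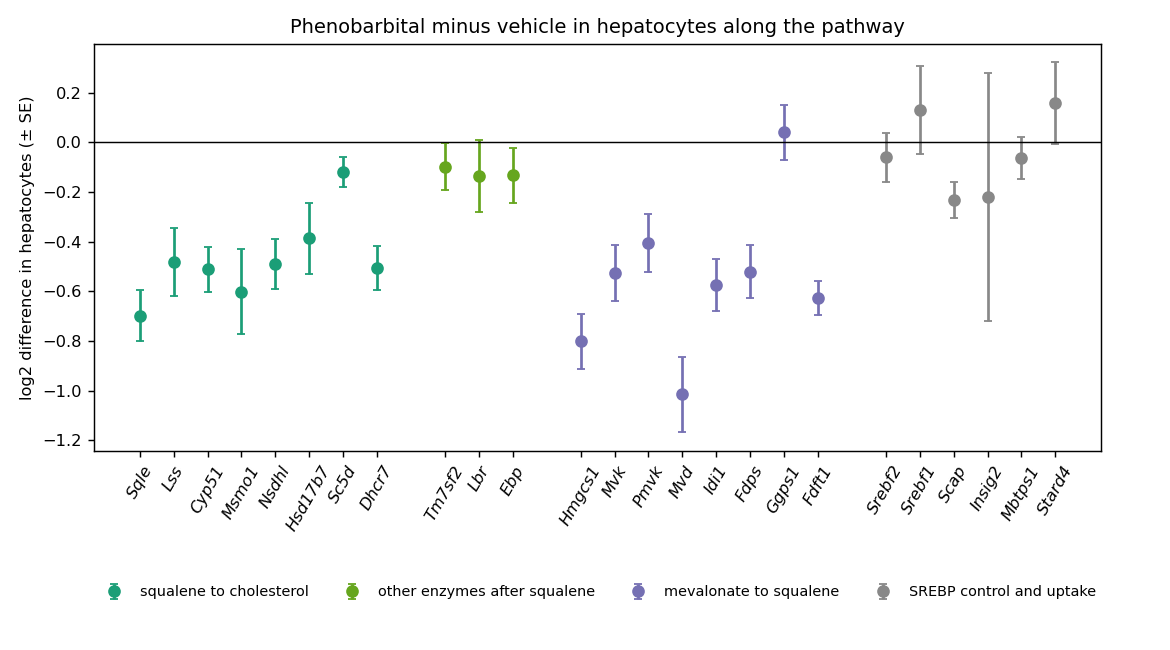
Log2 difference between phenobarbital and vehicle hepatocytes (y axis, limma estimate ± SE) for genes of 4 lists along the cholesterol pathway. The 8 enzymes run from −0.70 for Sqle to −0.12 for Sc5d, beside −1.02 for Mvd in the mevalonate arm, while Ebp, Tm7sf2, Lbr and most SREBP control genes lie nearer to 0.

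Of the lists that control, serve or use the pathway, no tested gene passed limma in hepatocytes. The 6 tested genes of SREBP control and sterol uptake had a median of −0.06. Srebf2 itself had −0.06 (95% interval −0.29 to 0.17), and Scap had −0.23 (SE 0.07, limma adjusted p 0.475) with all treated arrays (10.87, 10.80 and 10.76) below all vehicle arrays (11.09, 10.99 and 11.05). The cytochrome b5 system gives electrons to Msmo1 and Sc5d, and its 4 tested genes had a median of −0.04, with Cyb5a at 0.16 (SE 0.08) and Cyb5b at −0.19 (SE 0.13). Bile acid synthesis, which consumes cholesterol, had 5 of 6 genes negative and a median of −0.35, the farthest from 0 of these lists. Its Cyp7b1, an oxysterol hydroxylase, was at 12.31, 12.42 and 13.05 in phenobarbital arrays, against 13.43, 13.32 and 13.10 in vehicle arrays (−0.69, SE 0.19, limma adjusted p 0.450). Hsd3b7, which acts on the sterol ring, also had all treated arrays below all vehicle arrays (−0.48, SE 0.18, limma adjusted p 0.554). Akr1d1, a steroid reductase, had all treated arrays above (0.44, SE 0.10, limma adjusted p 0.381), and Cyp7a1, the rate-limiting enzyme, overlapped widely, with 7.72 to 10.64 in phenobarbital arrays and 8.64 to 10.47 in vehicle arrays. The median of 7 tested genes of LXR targets and sterol export was 0.08, that of 6 genes of sterol esterification and trafficking 0.00, and that of 5 fatty acid synthesis genes 0.03, beside 0.00 over all tested genes.

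Likeness of pattern was measured as the root mean square distance, over the 6 hepatocyte arrays, between a gene's centred profile and the mean centred profile of the 8 enzymes. A gene that does not vary would lie at 0.240. Among 8109 other tested genes the nearest were Ptch1 (0.0484), Kcnn1 (0.0664), Extl1 (0.0711), Anpep (0.0712), Rrp12 (0.0824), Fdft1 (0.0833), Etl4, Coro1c, Psip1 and Ccnd3. Other mevalonate enzymes came at rank 23 (Mvk), 41 (Fdps), 49 (Idi1), 169 (Pmvk) and 1310 (Hmgcs1, 0.211). Ggps1 at rank 4862 (0.285) and Mvd at rank 6503 (0.336) lay farther from the profile than a gene that does not vary. The distance also counts size: Mvd had a wider log2 difference (−1.02) in the same direction as the 8 enzymes, while Ggps1 had 0.04. Among the 8 enzymes, each against the mean of the other 7, Nsdhl (0.110), Cyp51 (0.118) and Dhcr7 (0.122) were nearest to the rest and Msmo1 (0.250) and Sc5d (0.209) farthest. The distance of Msmo1 was also above 0.240, although that level refers to the mean of all 8.

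In mesenchymal cells the 8 enzymes did not differ detectably between phenobarbital and vehicle mice. The differences ran from −0.18 for Sqle to 0.04 for Hsd17b7, with a median of −0.03 against 0.00 over the 8003 genes tested, and 5 were negative and 3 positive (48.2% of genes were negative). The groups overlapped in all 8, where 3.61% of genes had all treated arrays lower and 4.09% all higher. None of the 8 passed limma (adjusted p 0.998 for each), none had an unadjusted p under 0.05 (2.9% of all genes did), and 0% of genes passed. Intervals were wide for some members: −0.90 to 0.54 for Sqle, −0.92 to 0.60 for Cyp51 and −0.66 to 0.72 for Sc5d, so that a difference as wide as that of hepatocytes lies within them. They were narrower for Dhcr7 (−0.20 to 0.28) and Nsdhl (−0.34 to 0.27), and these intervals do not reach the hepatocyte estimates of −0.51 and −0.49. Those of Lss (−0.37 to 0.33), Msmo1 (−0.47 to 0.14) and Hsd17b7 (−0.35 to 0.43) do not reach their hepatocyte estimates either. The hepatocyte estimates have intervals of their own. For Nsdhl, Lss, Msmo1 and Hsd17b7 these overlap the mesenchymal interval, and for Dhcr7 they do not.

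Among phenobarbital mesenchymal arrays the SD was widest for Sc5d (0.62) and Sqle (0.60), and among vehicle mesenchymal arrays for Cyp51 (0.54). Sc5d was at 9.78, 8.65 and 8.78 in phenobarbital arrays, against 9.05, 9.11 and 8.96 in vehicle arrays. Sqle was at 7.59, 6.43 and 6.76 in phenobarbital arrays, against 7.33, 7.15 and 6.85 in vehicle arrays. In both genes phenobarbital array 1 was the highest of all 6 and another phenobarbital array the lowest. That array also had the highest mean of 13 hepatocyte markers, 11.64, against 10.72 and 10.41 in the other phenobarbital arrays and 9.92, 10.89 and 10.68 in the vehicle arrays. All 13 hepatocyte markers had positive mesenchymal differences, with a median of 0.51, and none passed limma. Without phenobarbital array 1 the median difference of the 7 enzymes that then passed the filter was −0.28, with 5 negative, 2 at an unadjusted p under 0.05 where 2.79% of genes in that fit were, and none passed. The part of hepatocyte RNA in these values was not tested.

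**Figure D3:**
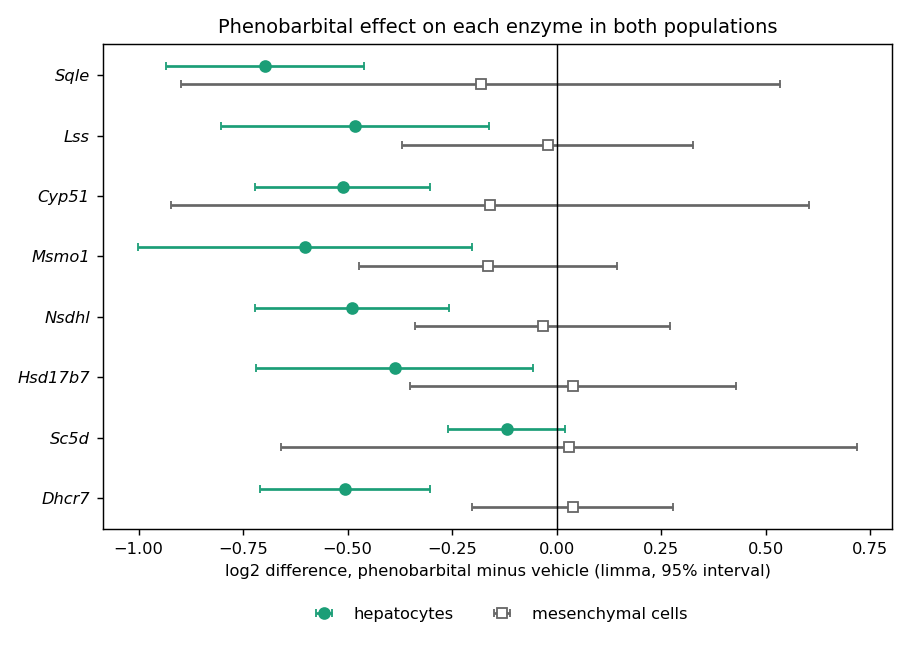
Log2 difference between phenobarbital and vehicle mice (x axis, limma estimate with 95% interval) for each enzyme in hepatocytes (filled circles) and mesenchymal cells (open squares). The hepatocyte intervals of 7 enzymes stay below 0 and that of Sc5d reaches 0.02, while all mesenchymal intervals include 0 and those of Sqle, Cyp51 and Sc5d are wide.

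Whether the effect of phenobarbital differed between the populations was tested directly, as the hepatocyte effect minus the mesenchymal effect. All 8 differences of effects were negative, from −0.54 for Dhcr7 to −0.15 for Sc5d, with a median of −0.45 against −0.01 over 9031 genes, of which 52.8% were negative. The 13 hepatocyte markers were likewise all negative in this contrast, with a median of −0.55, and the 8 mevalonate-to-squalene enzymes all negative, with a median of −0.49. The part of hepatocyte RNA in the mesenchymal arrays in these differences was not tested. None of the 8 passed limma, and 0% of genes passed. Dhcr7 (−0.54, SE 0.13, 95% interval −0.84 to −0.25, unadjusted p 0.00177, limma adjusted p 0.750) and Nsdhl (−0.46, SE 0.17, limma adjusted p 0.878) were the 2 with an unadjusted p under 0.05, where 2.95% of genes were as low by that measure. Without phenobarbital mesenchymal array 1 the median was −0.33 and Sc5d turned to 0.21. The hepatocyte and mesenchymal effects share no arrays, while the difference uses the arrays of both.

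Between populations all 8 enzymes were far lower in mesenchymal cells than in hepatocytes. In vehicle mice the median log2 difference was −3.45, against 0.02 over all genes, and all 8 passed limma as lower, where 40.7% of the 9031 genes passed as lower and 18.8% did so at 2-fold or more. In phenobarbital mice the median was −3.00, all 8 passed as lower, and 40.9% of genes passed as lower, 19% at 2-fold or more. The groups did not overlap in any of the 8 under either treatment, where 41.6% of genes in vehicle mice and 42.2% in phenobarbital mice were wholly lower in mesenchymal cells. The isolated fractions were told apart by their markers in vehicle mice. All 11 Kupffer cell and all 12 sinusoidal endothelial markers measured passed limma as higher in mesenchymal cells, with medians of 7.70 and 6.58. Over all genes, 3793 of 9031 passed as higher. Of 10 stellate and fibroblast markers measured, 8 were tested, all with positive differences, and 7 passed. Those not tested, Col1a1 and Pdgfrb, had lower means in mesenchymal cells (4.90 and 5.84) than in hepatocytes (5.17 and 6.20). All 13 hepatocyte markers passed as lower, with a median of −3.94.

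Low signal limits these differences for some genes. A gene was tested where at least 3 arrays lay above the 40th percentile of their array (6.64 to 6.68 in mesenchymal arrays), and all 8 passed on the mesenchymal arrays alone. Lss was above it in 1 phenobarbital and 2 vehicle mesenchymal arrays, Cyp51 in 2 of each and Sqle in 2 phenobarbital and 3 vehicle arrays, while the other 5 genes were above it in all arrays. The mean of Lss in vehicle mesenchymal cells, 6.62, was below that level. The sizes for Lss and Cyp51, whose mesenchymal signals lay near that level, are therefore given without a rank. Vehicle mesenchymal means of Hsd17b7 (6.99), Cyp51 (7.09) and Sqle (7.11) lay close together and not far above that level. The ranks given below for Sqle and Hsd17b7 are thus limited by low signal as well.

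Among the other genes Sqle had the widest difference between populations in vehicle mice. It averaged 7.11 ± 0.24 in vehicle mesenchymal cells and 11.60 ± 0.07 in vehicle hepatocytes (SD, n = 3 each), a log2 difference of −4.49 (SE 0.24, limma adjusted p 8.13e-09) or 22.5-fold lower. Sc5d (−4.09, SE 0.22) followed, then Msmo1 (−3.34, SE 0.17), Dhcr7 (−3.30, SE 0.09), Nsdhl (−3.11, SE 0.12) and Hsd17b7 (−2.80, SE 0.16), which was 6.96-fold lower. Msmo1 and Dhcr7 differed by less than the standard error of Msmo1. Cyp51 had −3.92 (SE 0.25) and Lss −3.55 (SE 0.15). Lbr, whose protein also anchors chromatin at the nuclear envelope, ran the other way at 2.32 (SE 0.14), while Tm7sf2, with the same reductase activity, had −4.47 (SE 0.16).

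Under phenobarbital the same comparison gave smaller sizes for each enzyme. Sqle averaged 6.93 ± 0.60 in phenobarbital mesenchymal cells and 10.91 ± 0.18 in phenobarbital hepatocytes (SD, n = 3 each), a difference of −3.98 (SE 0.24, limma adjusted p 2.31e-08). Hsd17b7 had −2.37 (SE 0.16) and Dhcr7 −2.75 (SE 0.09). The change between the treatments is the difference of effects tested above, which did not pass for any of the 8.

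In every one of the 8 genes vehicle hepatocytes had the highest mean and phenobarbital hepatocytes the next. These neighbours were apart in 7 genes and overlapped in Hsd17b7. The mesenchymal groups came below and overlapped each other in all 8, with the phenobarbital mean below the vehicle mean in Sqle, Lss, Cyp51, Msmo1 and Nsdhl, and above it in Hsd17b7, Sc5d and Dhcr7.

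On the linear scale the mesenchymal signal of the 8 enzymes was between 6.69% (Sqle) and 19.1% (Hsd17b7) of the hepatocyte mean in phenobarbital mice, with a median of 12.4%. In vehicle mice it was between 4.48% (Sqle) and 14.6% (Hsd17b7), with a median of 9.19%. The hepatocyte markers spread more widely than the enzymes: of 13, 4 lay below and 3 above the range of the enzymes under each treatment. Their median was 10.3% in phenobarbital mice and 6.84% in vehicle mice, with 5.50% and 3.48% for prothrombin (F2), 6.85% and 4.93% for Hnf4a, and 53.8% and 46.5% for albumin (Alb). The 3 markers above the range, Alb, Ttr and Serpina1c, had hepatocyte signals near the top of the array's scale. How much of the enzyme signal in the mesenchymal arrays came from hepatocyte RNA was not tested.

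**Figure D4:**
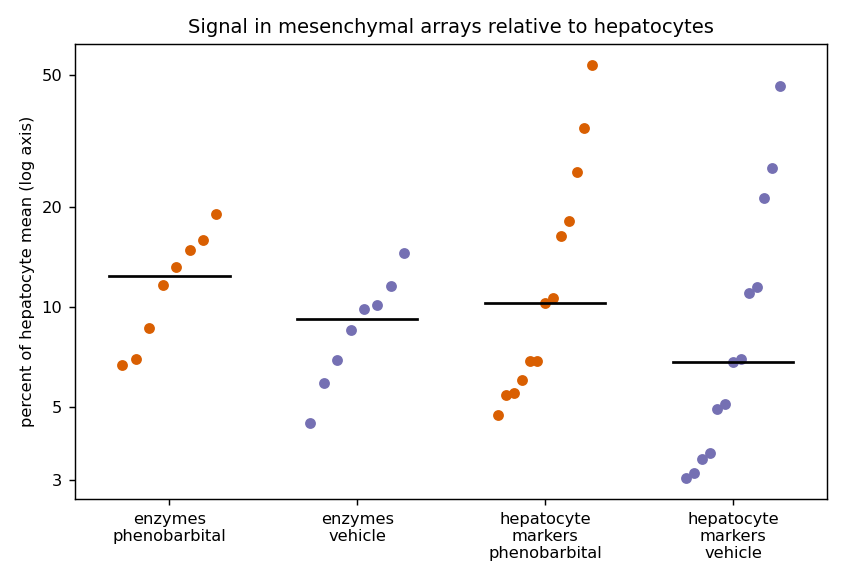
Mean linear signal of the mesenchymal arrays as a percent of the hepatocyte mean of the same treatment (y axis, log scale) for the 8 enzymes and for 13 hepatocyte markers, in phenobarbital (orange) and vehicle (purple) mice, with 1 point per gene and a line at the median. The enzymes, with medians of 12.4% and 9.19%, spread less than the hepatocyte markers, whose medians were 10.3% and 6.84%.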

How the data were processed

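The authors deposited log2 values of 22626 probe sets for each of 12 arrays, made with RMA per the submitters' processing notes. No source used here gives the RMA version. RMA brings arrays to a common distribution, so a shift of most genes one way would be removed. Of the probe sets, 20380 had 1 symbol in the platform annotation, 691 several and 1555 none. Only the first named genes.

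Linear models were fitted in limma 3.58.1 (R 4.3.3) with eBayes and an intensity trend. Genes above the 40th percentile in at least 3 arrays of the fit were tested, with Benjamini-Hochberg adjustment over all of them and a threshold of 0.05. Phenobarbital effects used the 6 arrays of a population, and the other contrasts all 12. The genes named were the 8 enzymes, the genes of the lists and the 10 nearest in pattern. The 8 enzymes and the lists were chosen with earlier results of these data known.

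Same-numbered vehicle samples of the populations deviated together (r = 0.226, 0.213 and 0.178 over genes), so the numbers paired them. The labels do not say why. Other same-numbered pairs ran from −0.304 to 0.144. No 2 arrays were identical (smallest median absolute difference 0.107). The fits were tested on simulated data. No scan date was at hand to test as a batch. The number of arrays limits the precision. Alternatives changed the filter, the probe set rule, the scaling, the variance prior, the arrays in the fit and the pairing, and left out arrays.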

Additional observations from a re-analysis of the deposited data

How the results depend on the processing

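In hepatocytes none of the 8 enzymes passed and all 8 differences stayed negative under each of the 14 alternatives. The number of all genes that passed was 4, and it was 8 with every probe set as its own feature, 1 with all 12 arrays in 1 fit, and between 1 and 5 with 1 array left out. In mesenchymal cells the enzymes were tested only where they passed the filter. Of 15 alternatives, Lss was tested in 10, Cyp51 in 13, Hsd17b7 in 14 and the others in all. With 1 array left out, the median of the enzymes tested ran from −0.28 (without phenobarbital array 1, 7 enzymes) to 0.063 (without phenobarbital array 3). It was −0.19 without array 1 of both groups, an alternative chosen after seeing the data. No mesenchymal enzyme passed under any alternative that tested it, and signs near 0 turned with 1 array left out. Over the fits that tested the gene, the ranges were −0.51 to 0.067 for Sqle, −0.12 to 0.072 for Lss and −0.47 to 0.080 for Cyp51. They were −0.16 to 0.054 for Nsdhl, −0.094 to 0.21 for Hsd17b7, −0.33 to 0.24 for Sc5d and −0.022 to 0.12 for Dhcr7. Sc5d was −0.32 without array 1 of both groups. In the difference of effects Sc5d ran from −0.36 to 0.21, and the number of all genes that passed was 0, or 0 to 1 with 1 array left out. Between populations all 8 passed as lower under every alternative. With the mean of all probe sets the medians were −2.79 in phenobarbital and −3.20 in vehicle mice. With arrays centred on their medians they were −3.23 and −3.66, since centring moved all genes by −0.23 and −0.22. With every probe set as its own feature 12736 and 12680 features passed, against 7503 and 7470 genes, because more features were tested. The replicate block changed no call of the 8 enzymes in any comparison. With it, 7449 genes passed in vehicle mice, where the numbers paired the samples, and 4 passed in hepatocytes. This block gave same-numbered arrays 1 shared effect, also across treatments, where the correlations of such pairs ran from −0.304 to 0.144. A block of number within treatment, chosen after seeing the data, also left all 8 passing as lower between populations. The causes of the other changes were not tested.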
